A study of Mus musculus with 9 samples.

Results

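G protein-coupled receptors whose names still mark them as orphans (Gpr), adhesion receptors (Adgr), the calcitonin receptor-like receptor Calcrl with its accessory proteins (Ramp), and the receptors Gprc5a, Gprc5b and Gprc5c were read in endothelial cells of the mouse retina. The members are all probe sets whose platform annotation gives exactly 1 gene symbol of this kind, without the macrophage gene Adgre1. They number 105 of 36701 probe sets and stand for 71 genes, with 30 probe sets on array design A, 43 on B and 32 on C. A further probe set, which carried the symbol Ramp2 beside that of another gene, was left out.

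All 9 arrays belong to 1 condition. They carried amplified, biotin-labelled RNA of GFP-positive cells sorted from retinas at postnatal day 8, taken from homozygous Tie2-GFP transgenic pups that had received APB5, an antibody that neutralizes PDGFRb, into the peritoneum between days 0 and 7. Tie2-GFP labels endothelium through the promoter of the angiopoietin receptor Tie2, which is also active in some blood cells, and retinas were pooled before the cells were sorted. No arrays of untreated animals are analysed here, so nothing below measures an effect of the antibody. The Affymetrix MG-U74v2 designs A, B and C, called the A, B and C arrays, were hybridised 3 times each, and the labels do not say whether these replicates came from separate pools, so their spread may be technical.

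G protein-coupled receptors span the membrane with a bundle of helices and pass the binding of a ligand to G proteins inside the cell. Adhesion receptors carry a long extracellular part that is cleaved near the membrane and that binds matrix or neighbouring cells. Calcrl is not functional alone. With Ramp1 it forms the receptor of the neuropeptide CGRP, and with Ramp2 or Ramp3 a receptor of adrenomedullin, a peptide needed for the growth and tightness of vessels. Several members are known from endothelium of other beds, among them Adgrl4, Adgrf5, Adgra2 and Gpr4.

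Values are given on 2 scales. The intensity is the deposited linear value of a probe set. The percentile is its rank among all probe sets of the same array, from 0 to 100. Probe sets bind with different strength, so neither orders transcripts of different genes, and a probe set at a low percentile may still belong to a gene that the cells transcribe. A probe set was called above the floor when it lay above percentile 40 on all 3 arrays of its design, and below the floor when it lay at or under it on all 3. A stricter level, percentile 69.2, is called the tissue-foreign level. It is the 90th percentile of the mean positions of 67 probe sets for 43 genes specific to tissues such as liver, pancreas and testis. Of those probe sets, 24, for 21 genes, were themselves above the floor, and 4 were above the tissue-foreign level. The highest, a reduced probe set of Prm1 on the C arrays, lay at percentile 90.3. A position above either level thus does not by itself show that a gene is transcribed.

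Over all designs, the median position of the receptors was percentile 48.9, against 50.0 for all probe sets. By design it was 52.9, against 50.1, on A, 51.9, against 50.0, on B, and 39.6, against 50.0, on C. Above the floor were 58 of 105 member probe sets (55.2%), against 56.5% of all probe sets. Above the tissue-foreign level were 31 (29.5%), against 28.0% of all. Both pooled shares are near those of all probe sets. On design A, 17 of 30 member probe sets exceeded the floor, against 56.6% of all probe sets of that design, and 8 exceeded the tissue-foreign level, against 28.2%. On design B these were 26 of 43, against 56.4%, and 16, against 27.8%, and on the C arrays 15 of 32, against 56.4%, and 7, against 28.0%. Counted by gene, 43 of 71 had a probe set above the floor (60.6%), against 72.5% of all 15964 named genes, and 25 had 1 above the tissue-foreign level (35.2%), against 42.9%. Member genes had 1.48 probe sets each and all genes 1.82, and a gene with more probe sets can pass more easily. No test was made of these shares.

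**Figure D1:**
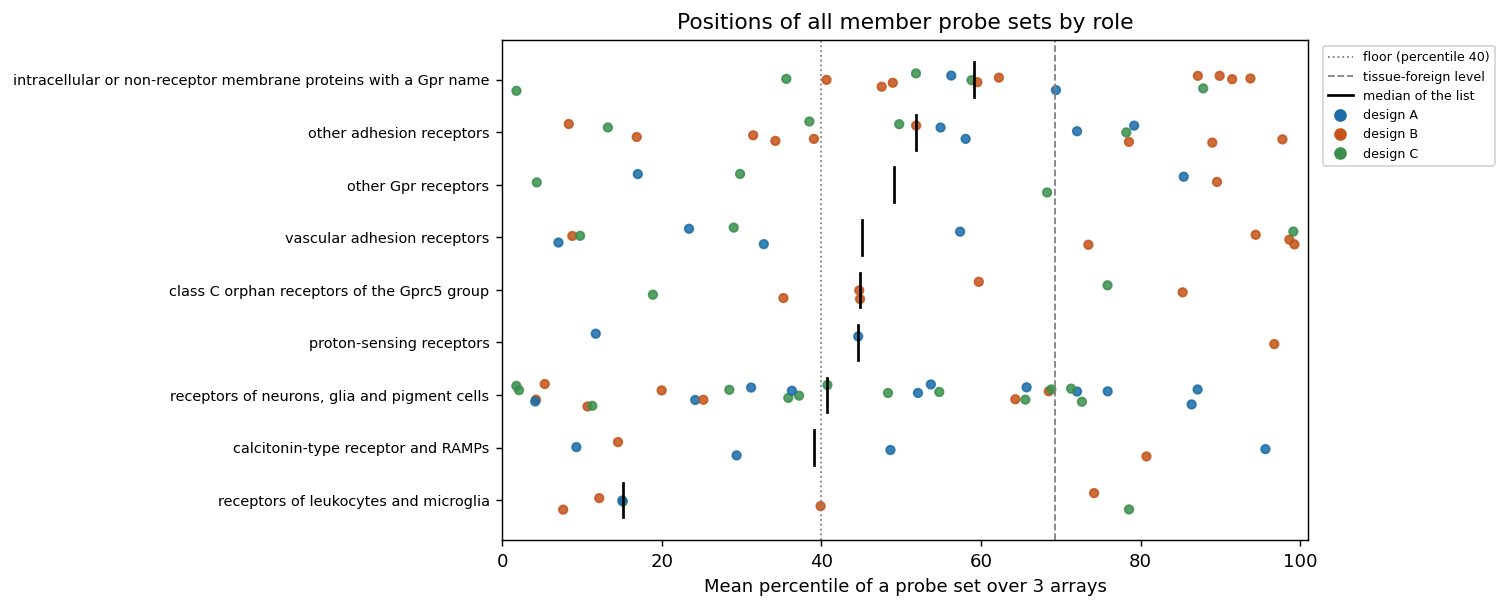
Mean percentile over 3 arrays (x axis) of each of the 105 member probe sets, in rows by role of the gene. Points are coloured by array design, black bars are the median of each row, the dotted line is the floor at percentile 40 and the dashed line the tissue-foreign level. Every role spans both sides of the floor, and the highest positions, above percentile 98, belong to the list named vascular adhesion receptors.

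Of the marker lists, that of endothelium stood highest. All 14 measured of 15 endothelial marker genes had a probe set above the floor, against 72.5% of all genes. Above the tissue-foreign level 12 had 1, against 42.9%, and the median over probe sets was percentile 93.6. The medians of the other marker lists lay between 29.1 and 42.3. None of the 12 mural cell genes exceeded the tissue-foreign level. That level was exceeded by 2 of 13 genes of microglia and macrophages, 3 of 9 of Muller glia and astrocytes, 6 of 14 measured of retinal neurons, 2 of 14 measured of photoreceptors, 2 of 6 measured of pigment cells, 4 of 8 measured of erythroid cells and platelets and none of 14 measured of lymphocytes and granulocytes. These counts stand beside the 42.9% of all genes with a probe set above that level. Fewer cells of a type and less RNA per cell cannot be told apart in these sorted pools.

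The list named vascular adhesion receptors, which also holds receptors known from other cells, had the highest positions of all members and some of the lowest. Of its 7 genes, 3 had a probe set above the floor, against 72.5% of all genes. Above the tissue-foreign level 3 had 1, against 42.9%, and the median over 12 probe sets was percentile 45.1. Adgrf5, also called Gpr116, is an adhesion receptor of endothelium and of surfactant-producing lung cells. Its B probe set 112336_at read 905, 790 and 834, at percentile 99.3 ± 0.085 (replicates 1, 2 and 3 in this order here and below; SD, n = 3). All 3 arrays placed it above percentile 99. The second Adgrf5 probe set of that design, 108812_at, read 456, 264 and 224, at percentile 94.4 ± 2.8. Replicate 1 lay above the others there, by a range of 1.03 on the log2 scale, while 112336_at ranged over 0.20.

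Adgrl4, also called Eltd1, is a latrophilin-like receptor known from sprouting and tumour vessels. It read 639, 605 and 672 on the B arrays (107545_at, percentile 98.7 ± 0.16) and 776, 655 and 686 on the C arrays (166941_f_at, percentile 99.1 ± 0.042). These probe sets lie on separate designs, and each read high on all of its arrays. The letter f marks a probe set that may match a family of sequences. Adgra2, also called Gpr124, is a partner of the anchored protein Reck in Wnt7 signalling of brain endothelium. It read 79.6, 98.7 and 84.0 on the B arrays, at percentile 73.5 ± 3.5, the lowest of the member probe sets above the tissue-foreign level when judged by the weakest array. Reck itself read 131, 134 and 148 on the A arrays, at percentile 81.3 ± 1.9.

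None of the other members of that list exceeded the floor on all arrays. Adgrg1, also called Gpr56, a receptor of collagen III known from the developing cortex, read 22.5, 23.4 and 20.4 on the A arrays and 9.17, 8.77 and 9.24 on the C arrays, below the floor on every array. Adgra3 read 9.94, 11.3 and 11.4 on the A arrays, at percentile 7.05 ± 0.50, the lowest of this role. Adgra1 lay at percentile 8.80 ± 0.76 on the B arrays. Adgre5 encodes CD97, a receptor of leukocytes that binds CD55. Its probe set 160276_at on the A arrays read 78.1, 33.0 and 65.6, a range of 1.24 on the log2 scale, and exceeded the floor in replicates 1 and 3. The other Adgre5 probe sets read 35, 22.7 and 28.9 on the A arrays and 19.3, 16.5 and 21.7 on the C arrays. Replicate 2 was the lowest for all of them. On design A, a reduced probe set of the macrophage receptor gene Csf1r was also lowest in replicate 2, at 341, 126 and 242, while the plain Csf1r probe set read 33.0, 34.2 and 31.4, below the floor. The summed intensity of the 17 probe sets of microglial and macrophage markers on the A arrays was 823, 640 and 754, and without that Csf1r probe set, a split chosen after the values were seen, it was 482, 514 and 512, highest in replicate 2. Replicate 2 was the lowest for 6 of these 17 probe sets. On the C arrays the list had 3 probe sets, of C1qc, Cx3cr1 and P2ry12. Their summed intensity was 128, 111 and 122, and each of them was lowest in replicate 2, with P2ry12 at percentile 2.12. Of the 13 genes on that list 6 had a probe set above the floor on their arrays, against 72.5% of all genes. Those 6 were Csf1r, C1qc, Cx3cr1, Fcgr3, C1qb and Cd68. C1qc lay at percentile 71.8 ± 2.3 on the C arrays, above the tissue-foreign level, and at 46.9 ± 2.9 on the A arrays. Cx3cr1 lay at 70.2 ± 1.5 and 54.3 ± 3.2 on these designs. Adgre1, Aif1, Lyz2, Itgam, C1qa and P2ry12 were below the floor, and Tyrobp crossed it between replicates. The part of these cells in the Adgre5 values was not tested.

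**Figure D2:**
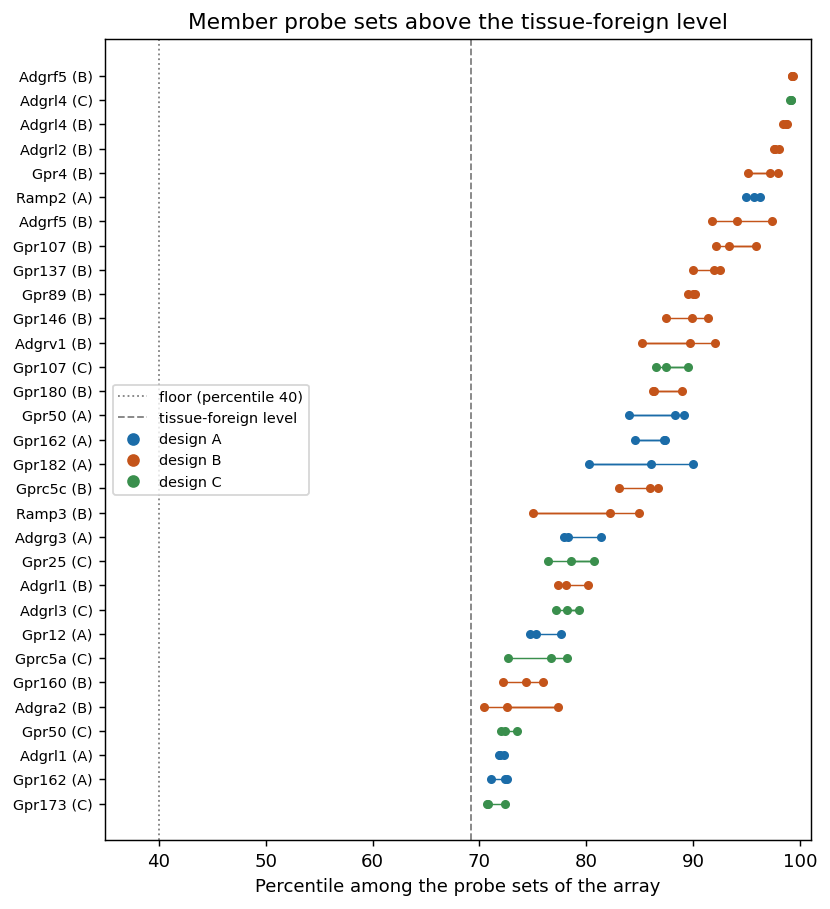
Percentile on each of the 3 arrays (x axis, joined points) of the 31 member probe sets above the tissue-foreign level, ordered by mean position and coloured by array design. The probe sets of Adgrf5, Adgrl4, Adgrl2, Gpr4 and Ramp2 at the top lie above percentile 91 on every array, and Gpr182 and Ramp3 are among those with the widest spread.

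The 250 bases before the transcription start are given for Adgrf5, Adgrl4, Gpr4, Ramp3 and Calcrl as examples. They are from RefSeq for GRCm38.p6, 5′ to 3′ on the strand of the gene. Capitals mark matches, on either strand, to 5 words searched for, namely the ETS-type words CCGGAAG and CAGGAAG, the GATA-type word AGATAA, the cAMP response word TGACGTCA and the TATA word TATAAA. Adgrf5, chr17:43360181-43360430, plus strand, the first of 2 listed starts, has 1 match to CAGGAAG on the other strand, and the window of the second start, chr17:43389216-43389465, has none of the words. Adgrl4, chr3:151437632-151437881, plus strand, has none. Gpr4, chr7:19212288-19212537, plus strand, has none. Ramp3, chr11:6658283-6658532, plus strand, has 1 match to CCGGAAG on the other strand. Calcrl, chr2:84425267-84425516, minus strand, has 1 match to CAGGAAG on the strand of the gene. The windows of Adgrl2, which matches CAGGAAG and TATAAA on the other strand, and of Ramp1, which has none of the words, are not printed.
Adgrf5: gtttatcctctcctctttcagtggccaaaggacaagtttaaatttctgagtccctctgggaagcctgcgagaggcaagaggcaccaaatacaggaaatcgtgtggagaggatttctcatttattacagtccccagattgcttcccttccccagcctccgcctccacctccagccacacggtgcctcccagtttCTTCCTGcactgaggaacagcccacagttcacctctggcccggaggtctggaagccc
Adgrl4: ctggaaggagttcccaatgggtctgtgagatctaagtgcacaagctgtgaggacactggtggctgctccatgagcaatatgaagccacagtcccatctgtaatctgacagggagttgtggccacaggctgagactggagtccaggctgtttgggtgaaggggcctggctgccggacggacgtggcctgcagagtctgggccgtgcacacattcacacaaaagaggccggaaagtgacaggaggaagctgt
Gpr4: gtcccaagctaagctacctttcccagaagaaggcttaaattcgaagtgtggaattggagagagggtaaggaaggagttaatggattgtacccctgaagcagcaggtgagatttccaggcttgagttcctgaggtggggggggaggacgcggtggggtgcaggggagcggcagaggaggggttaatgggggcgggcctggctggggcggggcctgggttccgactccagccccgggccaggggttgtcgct
Ramp3: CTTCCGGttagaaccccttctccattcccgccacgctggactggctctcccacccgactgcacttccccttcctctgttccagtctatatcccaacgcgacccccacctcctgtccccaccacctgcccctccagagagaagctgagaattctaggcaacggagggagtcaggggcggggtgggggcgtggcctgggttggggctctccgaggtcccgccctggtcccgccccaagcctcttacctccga
Calcrl: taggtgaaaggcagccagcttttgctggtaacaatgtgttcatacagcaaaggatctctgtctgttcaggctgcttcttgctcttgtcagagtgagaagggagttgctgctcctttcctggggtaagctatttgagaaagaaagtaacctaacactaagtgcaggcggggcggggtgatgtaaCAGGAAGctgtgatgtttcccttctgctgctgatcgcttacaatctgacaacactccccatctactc
RefSeq's table held 70 such windows for 55 of the 71 member genes. CAGGAAG was in 8 of these 70 windows (11.4%), against 10.8% of all 32851 windows, and CCGGAAG in 2 (2.86%, for Gpr107 and Ramp3), against 6.91%. AGATAA was in 5.71% of member windows and 9.99% of all, TGACGTCA in 1.43% and 1.55%, and TATAAA in 7.14% and 12.4%. The words do not overlap one another in the sequences shown. A match is a run of letters and does not show that a factor binds.

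Parts of the calcitonin-type receptors differed widely in position. Ramp2 read 481, 543 and 541 on the A arrays, at percentile 95.7 ± 0.63 (SD, n = 3), and all 3 arrays lay close together. Ramp3 read 145, 90.6 and 125 on the B arrays (percentile 80.7 ± 5.1) but 45.1, 37.7 and 45.3 on the A arrays (percentile 48.7 ± 4.1), so its probe sets fell on different sides of the tissue-foreign level while both exceeded the floor. Ramp1 read 22.8, 24.8 and 31.0 on the A arrays, below the floor in all replicates. Calcrl, the receptor that these proteins accompany, read 12.1, 12.4 and 13.7 on the A arrays (percentile 9.30 ± 0.63) and 15.6, 10.9 and 21.2 on the B arrays (percentile 14.5 ± 7.0). Its probe sets on designs A and B were thus below the floor on all 6 arrays that carried them, whereas Ramp2 was above the tissue-foreign level on all of its arrays. Since these are different probe sets, the gap between Calcrl and Ramp2 is not a ratio of their transcripts.

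The ligands and other parts of this system, from a list of 8 genes of which 6 were measured, included no probe set above the tissue-foreign level. Of all genes, 42.9% had such a probe set. Above the floor, 3 of the 6 had 1, against 72.5% of all genes. The adrenomedullin gene Adm read 47.4, 51.7 and 46.7 on the A arrays (percentile 53.8 ± 1.9) and 28.1, 26.1 and 23.7 on the C arrays (percentile 40.8 ± 3.3). The CGRP receptor component Crcp lay at percentile 68.3 ± 2.2, the amylin gene Iapp at 52.1 ± 7.6, the calcitonin receptor Calcr at 7.37 ± 1.6 and the CGRP gene Calcb, the lowest, at 6.85 ± 1.2.

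**Figure D3:**
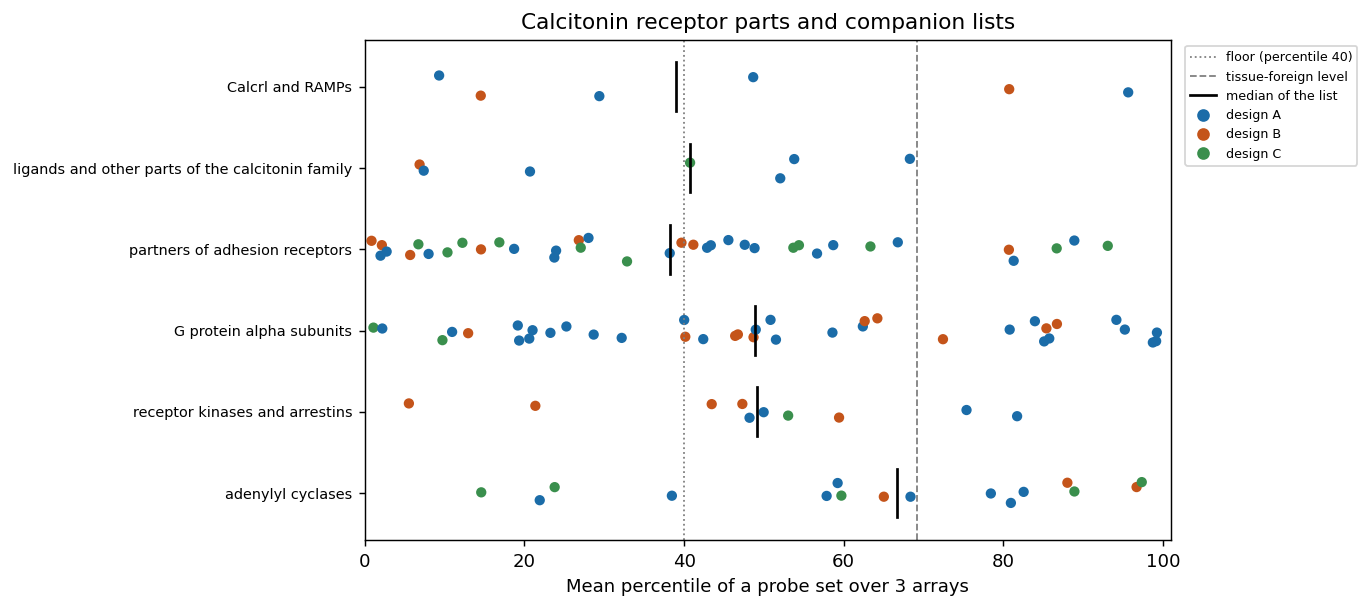
Mean percentile over 3 arrays (x axis) of the 6 probe sets of Calcrl and the RAMPs and of the probe sets of 5 companion lists, in rows, coloured by array design, with black bars at the median of each row. In the top row Ramp2 lies at percentile 95.7 and the 2 Calcrl probe sets at 9.30 and 14.5, and the adenylyl cyclases have the highest median.

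Proton-sensing receptors respond to acid outside the cell. Gpr4, known from endothelium, read 436, 297 and 489 on the B arrays, at percentile 96.8 ± 1.5. Replicate 2 was the lowest, yet all 3 arrays lay above percentile 95. Gpr132 and Gpr65, known from leukocytes, lay lower. Gpr132 read 34.8, 36.0 and 44.7 on the A arrays, at percentiles 41.4, 42.1 and 50.4 (44.6 ± 5.0), above the floor on each array. Gpr65 read 15.4, 15.03 and 12.9 on the A arrays, at percentile 11.7 ± 2.3.

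Among the other adhesion receptors, 8 of 12 genes had a probe set above the floor, against 72.5% of all genes, and 5 had 1 above the tissue-foreign level, against 42.9%. The latrophilins bind teneurins and FLRT proteins across cell contacts. Adgrl2 read 489, 471 and 469 on the B arrays, at percentile 97.8 ± 0.24, with a log2 range of 0.06. Adgrl1 lay at percentile 78.5 ± 1.4 on the B arrays and 72.0 ± 0.26 on the A arrays, and at 13.2 ± 0.39 on the C arrays, where its probe set name carries the letter r for a reduced probe set. Adgrl3 lay at 78.2 ± 1.1 on the C arrays and 39.1 ± 8.9 on the B arrays.

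Adgrv1, the large receptor of hair cells and photoreceptors that is mutated in Usher syndrome, read 236, 140 and 193 on the B arrays, at percentile 89.0 ± 3.5, and lay at 49.8 ± 8.1 on the C arrays. Adgrg3, known from granulocytes, lay at 79.2 ± 1.9 on the A arrays and 38.5 ± 1.7 on the C arrays. The brain receptors Adgrb1 and Adgrb2 lay at 58.1 ± 1.3 and 51.9 ± 2.0, between the levels, and Adgrd1 at 54.9 ± 3.0. Adgrg2, Adgrg6, Adgrf4 and Adgre4 were below the floor, with Adgre4 the lowest at 8.35 ± 0.71.

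Of the listed partners of adhesion receptors, 18 of 20 genes were measured. Of these, 14 had a probe set above the floor, against 72.5% of all genes, and 5 had 1 above the tissue-foreign level, against 42.9%. Besides Reck these were Flrt3 (percentile 93.1 ± 0.79), the scaffold gene Dlg1 (88.9 ± 1.2), Flrt2 (86.7 ± 1.4) and Wnt7b on the B arrays (80.7 ± 0.16). Flrt3 rests on 1 of 5 probe sets, a reduced one, the other ones lying between percentiles 2.13 and 53.7. Flrt2 was also read on a reduced probe set, and Wnt7b lay at 23.7 ± 4.4 on the A arrays. The lowest was a reduced probe set of Cd55, the ligand of CD97, at 0.83 ± 0.13. Plain Cd55 probe sets lay at 14.55 ± 3.2 on the B arrays and 7.98 ± 1.0 on the A arrays.

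In the Gprc5 group, whose genes respond to retinoic acid, the 3 genes differed between and within themselves. Gprc5c read 131, 148 and 160 at its probe set 111181_at on the B arrays (percentile 85.3 ± 1.9), and lay at 59.7 ± 5.2 at another probe set of design B and at 18.9 ± 3.3 on the C arrays. Gprc5a read 75.8, 68.5 and 60.9 on the C arrays, at percentile 75.9 ± 2.8. Gprc5b had 3 probe sets on the B arrays, at percentiles 44.8 ± 2.6, 44.7 ± 1.8 and 35.3 ± 5.3, 2 of them above the floor.

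Several proteins with a Gpr name are membrane proteins of the Golgi or of lysosomes rather than surface receptors. In this role, 8 of 9 genes had a probe set above the floor, against 72.5% of all genes, and 4 had 1 above the tissue-foreign level, against 42.9%, with a median over its 16 probe sets of percentile 59.2. Gpr107, a protein of the trans-Golgi network, read 237, 324 and 253 on the B arrays, at percentile 93.8 ± 1.9. Its other probe sets lay at 87.8 ± 1.5 and 58.8 ± 3.2 on the C arrays and at 40.7 ± 3.1 on the B arrays. Gpr137, a lysosomal membrane protein, read 201, 231 and 227 on the B arrays (percentile 91.5 ± 1.3), beside a second probe set at 48.9 ± 2.4.

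Gpr89, the Golgi pH regulator, read 194, 192 and 201 on the B arrays, at percentile 89.9 ± 0.37. Gpr180 read 156, 178 and 156, at percentile 87.2 ± 1.5. Gpr108 (59.6 ± 3.5), Gpr137b (56.3 ± 1.6 on the A arrays, 35.6 ± 5.1 on the C arrays), Gpr137c (51.9 ± 4.1) and the 3 probe sets of Gpr137b-ps (47.6 to 69.4, none above the tissue-foreign level on all arrays) lay between the levels or on both sides of the floor. Gpr137b and Gpr137b-ps have similar names and may share sequence, and binding of one transcript to the probes of the other was not tested. The lysosomal protein Gpr155 lay at 1.79 ± 2.3, on a reduced probe set.

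Receptors known from neurons, glia and pigment cells had 12 of 21 genes with a probe set above the floor, against 72.5% of all genes, and 4 with 1 above the tissue-foreign level, against 42.9%, with a median over 31 probe sets of percentile 40.8. Those 4 were Gpr50, Gpr162, Gpr12 and Gpr173. Gpr50, the melatonin-related receptor of the hypothalamus and pituitary, read 243, 164 and 208 on the A arrays (percentile 87.1 ± 2.7) and 63.7, 59.0 and 60.3 on the C arrays (percentile 72.7 ± 0.80). Both of its probe sets thus exceeded the level on all arrays. Gpr162 read 89.99, 90.8 and 82.2 at its plain probe set on the A arrays (percentile 72.0 ± 0.84) and lay at 86.4 ± 1.6 at a reduced one.

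Gpr12, a receptor that raises cAMP without a known ligand bound, read 99.3, 104 and 109 on the A arrays, at percentile 75.9 ± 1.6. Its 4 probe sets on the C arrays lay between percentiles 2.12 and 68.8, and all of those carry a suffix letter. Gpr173 read 58.3, 56.5 and 60.4 on the C arrays, at percentile 71.3 ± 0.95. Among other genes of this role, Gpr17 lay at 64.3 ± 2.8 on the B arrays and Gpr37l1 at 53.7 ± 2.1, both above the floor. Gpr62 lay at 54.8 ± 8.7 on the C arrays, above the floor, and at 25.2 ± 2.2 on the B arrays, below it. Gpr37 (24.2 ± 1.8) and Gpr143, the receptor of ocular albinism (31.2 ± 4.2), were below the floor on all arrays. The lowest single probe set of the role was 1 of Gpr22, whose 3 probe sets lay between percentiles 1.78 and 35.9, while both probe sets of Gpr83 lay low, at 4.14 and 5.34. For comparison within design A, the bipolar cell gene Pcp2 read 1898, 1008 and 1289 at 1 probe set and 17.1, 16.2 and 15.3 at the other. The first of these is the highest of 31 probe sets of retinal neuron markers, chosen after its values were seen. The median of that list was percentile 33.5, and 11 of the 31 were above the floor, against 56.5% of all probe sets. The summed intensity of its 15 probe sets on the A arrays was 2532, 1656 and 1865, and without the high Pcp2 probe set 634, 649 and 576. The part of retinal neurons in the values of these receptors was not tested.

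Receptors known from leukocytes and microglia had the lowest median of the roles, with 2 of 7 genes above the floor, against 72.5% of all genes, and a median over 7 probe sets of percentile 15.1. Gpr34, a receptor of microglia for lysophosphatidylserine, read 11.4, 10.5 and 11.9 on the B arrays, at percentile 7.65 ± 0.56, the lowest of the role. Gpr174, Gpr33 and Gpr15 lay between 12.2 and 15.1, and Gpr18 lay at the floor (39.9 ± 3.5). The exceptions were Gpr25, which read 70.5, 79.98 and 75.7 on the C arrays (percentile 78.6 ± 2.1), and Gpr160, which read 84.2, 88.5 and 95.1 on the B arrays (percentile 74.2 ± 1.9). The levels of Gpr84, Gpr183 and Gpr179 were not analysed here.

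Of the remaining genes, Gpr146, a receptor of liver lipid metabolism, read 224, 190 and 166 on the B arrays, at percentile 89.6 ± 2.0. Gpr182, a scavenger of chemokines in sinusoidal and lymphatic endothelium that was once taken for an adrenomedullin receptor, read 260, 134 and 174 at its plain probe set on the A arrays (percentile 85.4 ± 4.9), a range of 0.96 on the log2 scale. The second probe set of the gene on the same design, 162449_f_at, read 17.4, 19.6 and 16.8, at percentile 17.0 ± 2.5. The Gpr182 probe sets thus lay far apart on the same 3 arrays. Gpr75 lay at 68.3 ± 1.2, Gpr161 at 29.8 ± 4.0 and Gpr135, on a reduced probe set, at 4.34 ± 2.0.

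Probe sets of the same gene were compared where there were several. Of the 71 genes, 23 had several probe sets, up to 5. All probe sets were above the floor for 8 of them (Adgrf5, Adgrl4, Gpr137, Adgrv1, Gpr50, Gpr162, Ramp3 and Gpr137b-ps) and all were below it for 4 (Calcrl, Adgrg1, Gpr83 and Gpr22). For 6 genes at least 1 was above and 1 below. In 4 of these, Gpr182, Gprc5c, Adgrl1 and Gpr12, 1 probe set exceeded the tissue-foreign level while another was below the floor (17.4% of 23 genes, against 29.4% of all 7645 genes with several probe sets). The remaining 5 had a probe set that crossed the floor between replicates. Of the 14 member probe sets with a suffix letter, which marks shared or reduced probes, 3 were above the floor (21.4%), against 50.0% of all suffixed probe sets. Of the 91 plain ones, 55 were (60.4%), against 58.6%. Above the tissue-foreign level were 2 suffixed members (14.3%), against 28.2% of all suffixed probe sets, and 29 plain ones (31.9%), against 27.9% of all plain ones.

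**Figure D4:**
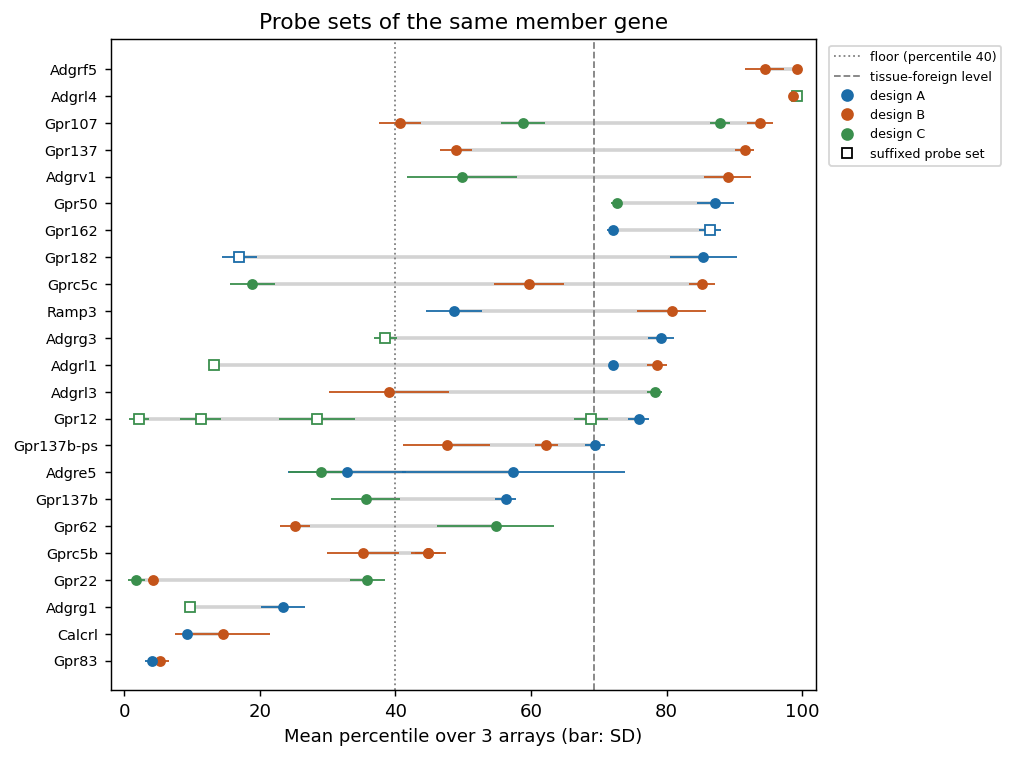
Mean percentile over 3 arrays with its SD (x axis) of each probe set of the 23 member genes that have several, 1 row per gene, coloured by array design, with open squares for suffixed probe sets and a grey line from the lowest to the highest. The probe sets of Adgrf5 and Adgrl4 lie together at the top and those of Calcrl and Gpr83 together at the bottom, while those of Gpr182, Gprc5c, Adgrl1 and Gpr12 span both the floor and the tissue-foreign level.

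The spread between replicates was described beside that of all probe sets, with no test of the difference. The median SD over the replicates was 0.11 on the log2 scale for members above the floor and 0.12 for all probe sets above it. Only 1 of 58 member probe sets above the floor ranged over more than 1 log2 unit, against 1.1% of all probe sets above the floor, namely 108812_at of Adgrf5. By design these were 0 of 17 members on A, against 1.15% of all, 1 of 26 on B, against 1.26%, and 0 of 15 on C, against 0.882%. Log2 intensities of member probe sets correlated between replicate arrays, across probe sets that are not independent, with r between 0.971 and 0.987 on the A arrays, 0.988 and 0.989 on the B arrays and 0.974 and 0.976 on the C arrays. Over all probe sets r lay between 0.984 and 0.987 on the A arrays, 0.983 and 0.986 on the B arrays and 0.981 and 0.984 on the C arrays. Members above the floor with a range over 0.5 log2 units were Gpr182 and Gpr50 on the A arrays, Ramp3, Adgrv1, Gpr4, Gpr153 and the weaker Adgrf5 probe set on the B arrays, and Adgrv1 and Gpr62 on the C arrays. Replicate 2 was the lowest for both members on the A arrays, against 36.5% of all probe sets with such a range there, and for 4 of 5 on the B arrays, against 61.3%. Replicate 3 was the lowest for both members on the C arrays, against 23.9%. Of all probe sets with such a range, replicate 2 was the lowest for 65.3% on the C arrays and replicate 3 for 43.6% on the A arrays. This comparison was added after the values were seen. The replicate named for each design is the one where most members were lowest, and so few members show no pattern.

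**Figure D5:**
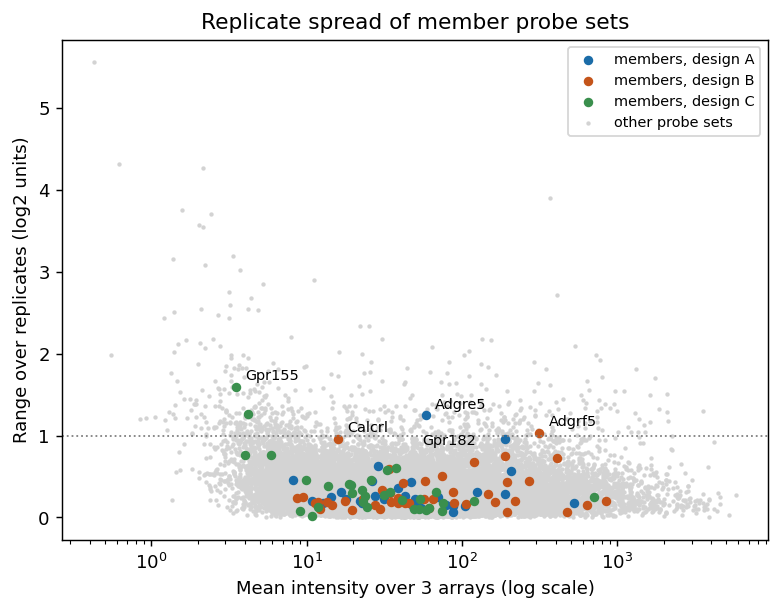
Range over the 3 replicates in log2 units (y axis) against mean intensity (x axis, log scale) for member probe sets, coloured by array design, and for the other probe sets in grey, without probe sets that read 0 on an array. Most members lie below 0.5 log2 units, and the dotted line at 1 is passed by the weaker Adgrf5 probe set, by Adgre5 and by 2 members of very low intensity, Gpr155 and Gpr12.

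Inside the cell, receptors act through G proteins, kinases, arrestins and adenylyl cyclases. Of 15 G protein alpha subunits, 12 had a probe set above the floor, against 72.5% of all genes. Above the tissue-foreign level 8 had 1, against 42.9%. Gnai2, an inhibitory subunit, read 1748, 1656 and 1531 at its highest probe set on the A arrays, a suffixed one (percentile 99.2 ± 0.068). Its plain probe set there lay at 94.2 ± 0.88. Gnas, the stimulatory subunit, read 1502, 1829 and 1405 at 1 of 5 probe sets, a suffixed one, at percentile 99.1 ± 0.18. The other Gnas probe sets lay at or below percentile 32.2. Gnai3 lay at 95.2 ± 0.35 on the A arrays. The lowest subunit position was that of a reduced probe set of Gnas at 1.07 ± 0.64. Of 10 adenylyl cyclases, 9 were measured. Of these, 7 had a probe set above the floor, against 72.5%, and 5 had 1 above the tissue-foreign level, against 42.9%. Adcy5 (97.3 ± 0.37 on the C arrays), Adcy4 (96.7 ± 0.83 on the B arrays) and Adcy1 (88.0 ± 0.72 on the B arrays) were the highest. These probe sets of Adcy5 and Adcy4 carry a suffix letter. Another suffixed Adcy5 probe set lay at 59.7 ± 0.94 on the C arrays. Plain ones of Adcy5 lay at 88.9 ± 0.76 on the C arrays and 65.0 ± 4.6 on the B arrays. The plain Adcy4 probe set lay at 82.55 ± 1.2 on the A arrays. A probe set of Adcy1 on the C arrays was the lowest, at 14.6 ± 1.1. Of 8 receptor kinases and arrestins, 6 were measured. Of these, 4 had a probe set above the floor, against 72.5% of all genes. The tissue-foreign level was exceeded by 2, against 42.9%, namely Grk6 (81.7 ± 1.0) and Arrb1 (75.4 ± 1.8). Arrb1 did so at a suffixed probe set, and its plain one lay at 49.97 ± 0.89 on the A arrays. Grk5 reached 59.4 ± 1.3, and a reduced probe set of Arrb2 was the lowest at 5.51 ± 2.8.

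The count above the floor depends on where the floor is set, with 68 member probe sets above percentile 30 and 47 above percentile 50. Just above the floor by their weakest array lay a Gpr137b-ps probe set (40.3) and Gpr132 (41.4), and just below it Adgre5 (38.6) and Gpr107 (37.7). Just above the tissue-foreign level lay Adgra2 (70.5) and Gpr173 (70.7), and just below it another Gpr137b-ps probe set (67.7) and a probe set of Gpr12 (67.1).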

How the data were processed

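Expression was measured on Affymetrix MG-U74v2 arrays, 3 replicates on each of 3 designs. The authors deposited a linear intensity for each probe set on each array. The methods of probe summary, background correction and scaling were not given in the sources used here. Median intensity lay between 42.9 and 44.5 on designs A and B and between 32.3 and 32.9 on design C. Zeros were replaced by the lowest value above 0 of the same array before log2 was taken.

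The platform annotation gave 29131 of 36701 probe sets 1 symbol, and comparison by Entrez identifier with the RefSeq table of GRCm38.p6 changed 0 member symbols. Percentiles, floor calls and ranges were computed with Python 3.11.15, pandas 2.3.3 and numpy 2.4.6. The calls were also run on simulated arrays, with probe sets placed far from the floor and deviations well over 1 log2 unit. Calls near either level were not tested by this. All arrays belong to 1 condition, so no test between groups was made. The number of arrays limits the precision. The members and gene lists were chosen with earlier results of these data known. Genes named include those above the tissue-foreign level and those with a log2 range over 1. They also include those whose probe sets lie on both sides of the 2 levels and the lowest of each role. A preset list and the 3 highest and the lowest of each companion list were added. Some further members and companions are named outside these rules.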

Additional observations from a re-analysis of the deposited data

How the results depend on the processing

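The count of member probe sets above the floor (58) was 68 with the floor at percentile 30 and 47 at percentile 50, 55 with plain probe sets alone, and 59 to 60 without a replicate. The count above the tissue-foreign level (31) was 29 with plain probe sets alone, 31 with that level taken from design A alone, and 31 to 32 without a replicate. The median percentile of member probe sets (48.9) was 52.1 with plain probe sets alone, 46.9 when ranked among probe sets with 1 gene symbol, 52.0 when each gene kept only its strongest probe set per design, and 49.1 to 50.4 without a replicate, beside an SD of 1.37 between replicates when arrays of equal number on the 3 designs are joined. The single member above the floor with a range over 1 log2 unit became 2 with the floor at percentile 30, 0 with 50 added to each intensity, 0 after quantile normalization, and 0 to 1 without a replicate, being 0 without replicate 1 and without replicate 3. Leaving out an array can only keep or narrow a range. No paired analysis was possible because all arrays belong to 1 condition and no groups were compared. Without detection calls or negative controls, signal near the floor cannot be told from background.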
